A study of Mus musculus with 9 samples.

Results

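*Peg3*, *Ybx1*, *Ssrp1*, *Smarcd3* and *Kansl3* encode proteins that act on DNA, chromatin or RNA. They were taken by symbol from the deposited expression table, in which each has 1 row, and are 5 of its 689 genes. The RNA came from frozen half-brain tissue, 1 mouse to a library, of male C57BL/6J mice in 3 groups of 3 mice, collected after behavioural testing. Young control mice were 5 months old by the sample labels, came from JAX and ate control diet for 6 weeks. Aged control mice were 24 months old, came from NIA and ate the same diet for 6 weeks. Aged-repopulated mice, of the same age and supplier as the aged controls, ate PLX5622 for 2 weeks and then control diet for 4 weeks. PLX5622 blocks CSF1R, the receptor whose signal keeps microglia alive, and new microglia fill the brain after its withdrawal. The effects of supplier and of age cannot be told apart.

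Each of the 5 genes stands for a different layer of gene control. *Peg3* is an imprinted gene, expressed from the paternal allele, and encodes a large DNA-binding protein with Krüppel-type zinc fingers that is abundant in brain. *Ybx1* encodes Y-box binding protein 1, which packages messenger RNA, limits its translation and also binds DNA. *Ssrp1* encodes a subunit of FACT, the histone chaperone that lets polymerases pass through nucleosomes. *Smarcd3* encodes BAF60C, a subunit of the BAF (SWI/SNF) complexes that slide and evict nucleosomes and that change composition as neurons mature. *Kansl3* encodes a subunit of the NSL complex, in which the acetyltransferase KAT8 modifies histone H4.

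*Peg3* shares its start region with *Usp29*, which is read from the opposite strand, and Y-box proteins were named after a promoter element that contains CTGATTGG. A stretch between the GENCODE starts of *Peg3* (6730431) and *Usp29* (6730578) is therefore shown, with the stretch upstream of the outermost GENCODE start of *Ybx1*. Both are sequence of RefSeq on build GRCm38.p6, on the minus strand, which *Peg3* and *Ybx1* are read from. Capitals mark the letters CCAAT or, on the other strand, ATTGG.
*Peg3*, chr7:6730463-6730558: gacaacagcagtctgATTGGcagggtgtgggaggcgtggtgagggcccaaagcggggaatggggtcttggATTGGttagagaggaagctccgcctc
*Ybx1*, chr4:119294605-119294763: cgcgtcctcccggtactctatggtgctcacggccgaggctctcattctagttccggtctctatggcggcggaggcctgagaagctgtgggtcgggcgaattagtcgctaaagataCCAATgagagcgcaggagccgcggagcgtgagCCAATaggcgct
Neither stretch overlaps a GENCODE M21 exon (0 exons for each), although the RefSeq range of *Ybx1* as a gene reaches farther upstream. CCAAT or ATTGG was searched on both strands in all 32851 RefSeq promoter windows, each from 250 bases before a start to 50 after it, and 37.4% held at least 1 match. The window of *Peg3* held 2 matches, that of *Ybx1* 3 and that of *Kansl3* 1, and both windows of *Ssrp1* and the window of *Smarcd3* held 0. The longer CTGATTGG or CCAATCAG, which includes the shorter letters, was found 1 time in the *Peg3* window and in no window of the other genes, against 4.10% of all windows. These matches describe the sequence and are not measured binding sites.

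Values were deposited as RPKM, reads scaled by transcript length and by how many reads were mapped, so that levels can be compared between genes. *Peg3* was the most abundant of the 5, with a mean of 72.1 RPKM over the 9 libraries, rank 60 of 689. *Ssrp1*, *Ybx1* and *Smarcd3* followed at 30.9, 30.6 and 30.2 RPKM, and their ranges over the libraries overlapped. *Kansl3* was lowest at 18.9 RPKM, close to the median of 19.7 RPKM over the gene means of the table. The ranges of *Peg3* (65.4 to 76.7 RPKM) and of *Kansl3* (17.8 to 19.7 RPKM) did not touch those of the 3 genes between them (27.7 to 34.0 RPKM).

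The table holds only genes that the authors' model had called. The study's methods describe a model over these and other groups. The deposited table, whose name says that some libraries were excluded, gives library values for these 9 alone. Whether other libraries also entered the choice of genes is not settled. Because the table is selected, a share of genes called here is read against the share over the table. The alternative scalings used below were estimated on these selected genes alone. Whether they remove technical or real change was not tested. Summed RPKM over the table was 22242 to 22330 in young control, 23629 to 24853 in aged control and 22861 to 23632 in aged-repopulated libraries. Over all 689 genes the median log2 difference was 0.096 for aged control against young control and -0.047 for aged-repopulated against aged control. Of the neuronal markers listed, 3 of 11 are in the table (*Rbfox3*, *Gad1* and *Snhg11*), with sums of 562 to 584 RPKM in young control, 631 to 693 in aged control and 605 to 622 in aged-repopulated libraries. Of the microglial markers, 8 of 13 are in the table, with sums of 155 to 161, 229 to 272 and 219 to 318 RPKM in the same order. The 5 of 11 immediate early genes summed to 78.2 to 130, 106 to 170 and 59 to 71.8 RPKM, and the 3 of 8 endothelial markers to 55.9 to 56.1, 46.6 to 53.7 and 41.9 to 51.5 RPKM. *Opalin*, the 1 of 9 oligodendrocyte markers present, was at 15.5 to 19, 10.9 to 13.2 and 12.1 to 19.2 RPKM. None of the listed astrocyte, oligodendrocyte precursor, choroid plexus, hypothalamic or blood markers is among the 689 genes. The part of cell composition in the results below was not tested, and in these bulk samples fewer cells of a type and less RNA per cell cannot be told apart.

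*Peg3* was lower in aged control brains than in both other groups. It lies on chromosome 7 of GRCm38 from 6703892 to 6730431, on the minus strand, and its transcript has 8694 nucleotides. It was at 76.7, 74.1 and 73.0 RPKM in young controls, at 68.7, 67.4 and 65.4 RPKM in aged controls, and at 75.0, 73.9 and 74.3 RPKM in aged-repopulated brains. All aged control values lay below all values of the other groups, whereas the aged-repopulated values lay inside the range of the young controls. The mean and SD of 3 libraries were 74.6 ± 1.93 RPKM for young control, 67.1 ± 1.67 for aged control and 74.4 ± 0.55 for aged-repopulated mice.

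**Figure D1:**
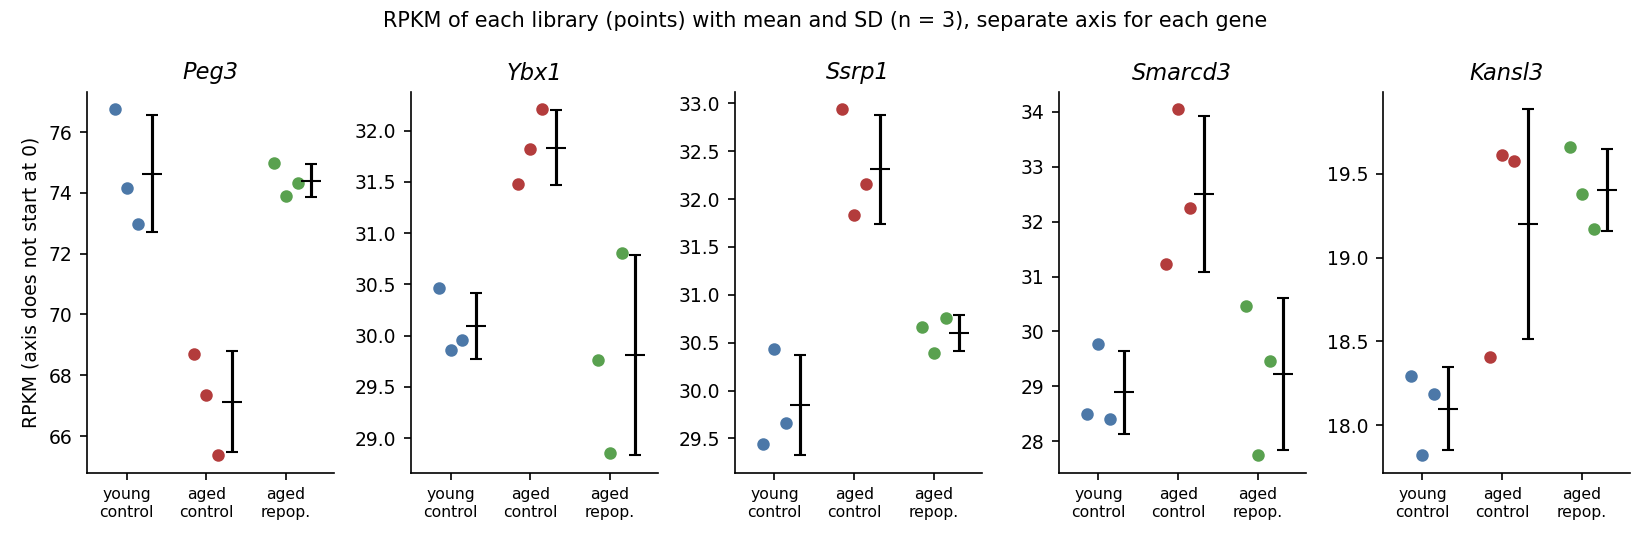
RPKM of *Peg3*, *Ybx1*, *Ssrp1*, *Smarcd3* and *Kansl3* in each library (points, 3 for each group), with the group mean and SD beside them; each gene has its own vertical axis, which does not start at 0. *Peg3* is lowest in the 3 aged control libraries, *Ybx1*, *Ssrp1* and *Smarcd3* are highest there, and *Kansl3* is lowest in the young control libraries.

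With age *Peg3* fell by 0.15 on the log2(RPKM + 1) scale (SE 0.033, adjusted p = 0.0096, limma across all 689 genes, Benjamini-Hochberg). With repopulation it rose by 0.15 against aged controls (SE 0.033, limma adjusted p = 0.041). Both comparisons use the same aged control libraries and are not independent. Against young controls the aged-repopulated level differed by -0.0039 log2, with a 95% interval from -0.077 to 0.070 (limma, adjusted p = 0.938). This difference depended on scaling: it was -0.057 with median centring and -0.14 with quantile normalization (limma adjusted p = 0.326 and 0.063), the latter outside that interval, and neither was called. The rise with repopulation was close to the threshold. Its adjusted p from limma was 0.052 to 0.089 with any single library left out other than aged control replicate 1, and 0.024 without that one, at log2 changes of 0.13 to 0.16. It was 0.095 in a fit of these groups alone and 0.066 with unmoderated variances.

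*Peg3* has a longer transcript than the median of the table, 3178.5 nucleotides, and the change of a gene varied with transcript length across the table. At 8694 nucleotides the length trend was -0.091 log2 with age and 0.092 with repopulation. After each library was corrected for this trend, the differences of *Peg3* were -0.059 with age and 0.055 with repopulation (limma, adjusted p = 0.198 and 0.394), and neither was called. With each library centred on its own median they were -0.26 and 0.20, and both were called.

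**Figure D2:**
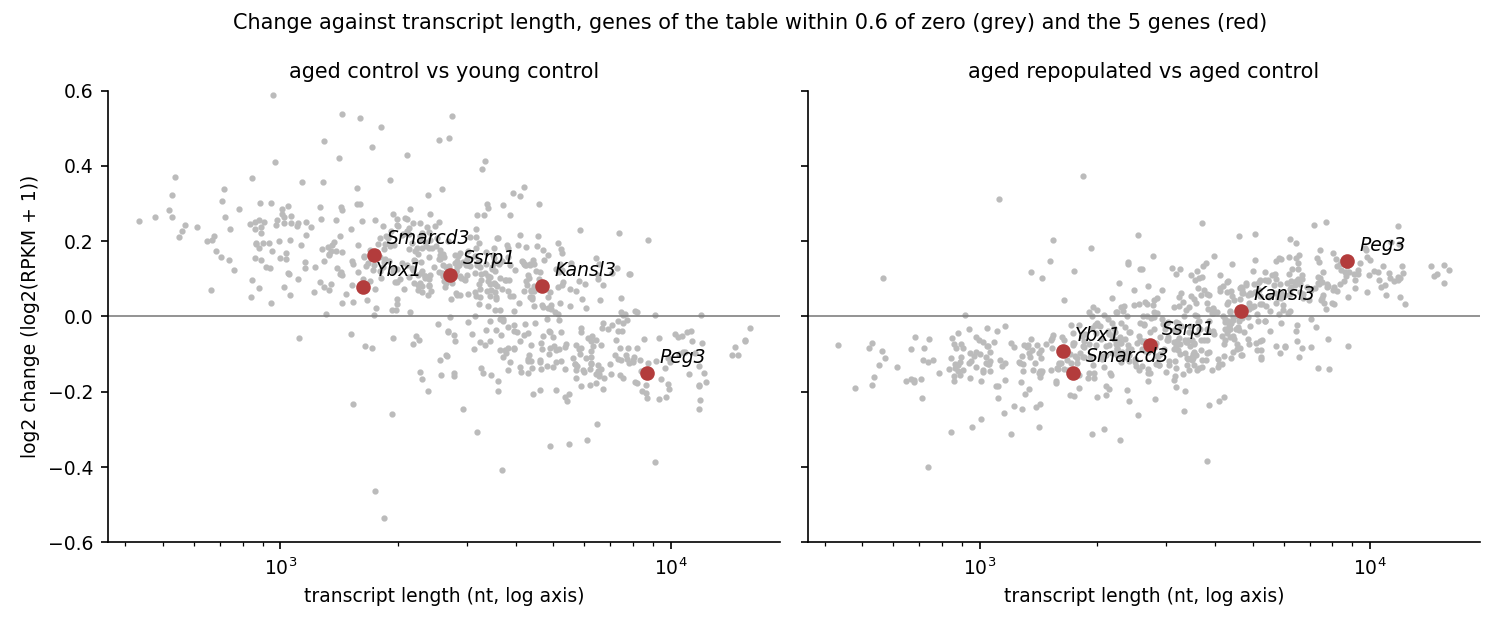
Log2 change of each gene of the table (grey, vertical axis) against the length of its transcript (horizontal log axis, nucleotides), with age on the left and with repopulation on the right; the 5 genes are in red, and 16 and 5 of 686 genes lie outside the axis limits of 0.6. *Peg3* lies with the long transcripts that were lower with age and higher with repopulation, and *Ybx1* and *Smarcd3* lie with short ones.

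*Ybx1*, *Ssrp1* and *Smarcd3* were at their highest RPKM in aged control brains, and of these *Ssrp1* and *Smarcd3* rose with age. *Ybx1*, on chromosome 4 from 119277981 to 119294604 with a transcript of 1628 nucleotides, was at 30.5, 29.9 and 30.0 RPKM in young controls, 31.5, 31.8 and 32.2 in aged controls, and 29.8, 28.9 and 30.8 in aged-repopulated brains. Its aged control values lay above all others, and its aged-repopulated values spread on both sides of the young controls. Its log2 difference was 0.079 with age (SE 0.032, limma adjusted p = 0.057) and -0.092 with repopulation (SE 0.032, limma adjusted p = 0.085). Neither was called. Of 1579 stretches of 50 bases in the *Ybx1* transcript, 25.1% also occur, in either orientation, in transcripts of 6 other annotated genes, among them the processed pseudogene *Ybx1-ps2*. How shared reads were counted is not given in the sources used here. With the correction for transcript length, the age difference of *Ybx1* was -0.12 log2 (limma adjusted p = 0.035), the opposite direction to the uncorrected values. It was also negative, and not called, with median centring, quantile normalization and the GC correction (-0.029, -0.028 and -0.024). It was called higher with age with a pseudocount of 10, untransformed RPKM, a minimum mean of 20 RPKM and unmoderated variances (limma adjusted p = 0.044, 0.028, 0.044 and 0.039).

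*Ssrp1* lies on chromosome 2 from 85037234 to 85047109, with a transcript of 2721 nucleotides. It was at 29.4, 30.4 and 29.7 RPKM in young controls, 32.9, 31.8 and 32.2 in aged controls, and 30.7, 30.4 and 30.8 in aged-repopulated brains. The aged controls were above both other groups without overlap, and the aged-repopulated and young values overlapped only at the young library of 30.4. *Ssrp1* rose with age from 29.8 ± 0.52 to 32.3 ± 0.57 RPKM (SD, n = 3 each), a log2 change of 0.11 (SE 0.030, limma adjusted p = 0.014). With repopulation its difference was -0.076 (SE 0.030, limma adjusted p = 0.0999), which was not called. Under the scaling alternatives (centring, quantile normalization, length and GC) it was -0.022, -0.026, -0.0038 and -0.035.

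*Smarcd3*, on chromosome 5 from 24590818 to 24624411 with a transcript of 1735 nucleotides, was likewise highest in aged controls. It was at 28.5, 29.8 and 28.4 RPKM in young controls, 31.2, 34.0 and 32.2 in aged controls, and 30.5, 27.7 and 29.5 in aged-repopulated brains. The aged controls were again above both groups without overlap, with aged-repopulated replicate 1 the closest to them. *Smarcd3* rose with age by 0.16 log2 (SE 0.045, limma adjusted p = 0.014). With repopulation its difference was -0.15 (SE 0.045, limma adjusted p = 0.061), not called, and without aged control replicate 1 it was -0.18 (limma adjusted p = 0.036). With median centring, quantile normalization, the length correction and the GC correction it was smaller, at -0.095, -0.097, -0.045 and -0.052 (limma adjusted p from 0.111 to 0.469). In the *Smarcd3* transcript 24.6% of 1686 stretches of 50 bases also occur, in either orientation, in a transcript of *Chpf2*. That gene lies on the opposite strand and overlaps the end of *Smarcd3*, and the strand of the reads is not given in the sources used here. *Chpf2*, looked up after the overlap was seen, was at 11.7 ± 0.69, 11.1 ± 1.01 and 10.9 ± 0.32 RPKM (SD, n = 3) in young control, aged control and aged-repopulated brains and was not called in any comparison (limma adjusted p from 0.258 to 0.883).

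The rises of *Ssrp1* and *Smarcd3* with age depended on scaling. The scalings were estimated on the selected genes alone, of which 46.3% were called higher with age and 16.5% lower. Whether they remove technical or real change was not tested. With median centring the differences were 0.0033 and 0.057 log2 (limma adjusted p = 0.942 and 0.279), and with the length correction -0.0064 and -0.018 (limma adjusted p = 0.893 and 0.671).

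The RPKM of *Kansl3* in aged-repopulated brains lay with the aged controls. It lies on chromosome 1 from 36335730 to 36369181, and its transcript has 4663 nucleotides. It was at 18.3, 17.8 and 18.2 RPKM in young controls, 18.4, 19.6 and 19.6 in aged controls, and 19.7, 19.4 and 19.2 in aged-repopulated brains. All 6 aged libraries were above the 3 young ones, with aged control replicate 1 the closest to them. Its log2 difference was 0.080 with age (SE 0.034, limma adjusted p = 0.059), 0.015 with repopulation (95% interval -0.060 to 0.090, limma adjusted p = 0.731) and 0.095 between aged-repopulated and young brains (SE 0.034, limma adjusted p = 0.104). None was called. Without aged control replicate 1 the difference with age was 0.11 (limma adjusted p = 0.020), whereas it changed sign with median centring, quantile normalization and the GC correction (-0.027, -0.0084 and -0.053 log2, none called). Under the same 3 settings the aged-repopulated level was nearer to the young than to the aged controls, by 0.042, 0.045 and 0.019 log2 above the young and 0.069, 0.053 and 0.072 above the aged controls.

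Counted together, 3 of the 5 genes were called with age, *Peg3* lower and *Ssrp1* and *Smarcd3* higher, against 62.8% of the table called, 46.3% higher and 16.5% lower. All 5 had an unadjusted p under 0.05 with age, as did 69.5% of the table. With repopulation 1 of the 5 was called, *Peg3*, against 8.71% of the table, 2.9% higher and 5.81% lower, and 4 of 5 had an unadjusted p under 0.05, against 39.3%. In aged-repopulated against young control brains, limma called 0 of the 5, against 4.93% of the table (4.21% higher and 0.726% lower), and 1 had an unadjusted p under 0.05 (*Kansl3*), against 28.4%. These splits depended on scaling. With median centring, 78 table genes were called higher and 215 lower with age, against 319 and 114 without it. With repopulation 111 were higher and 22 lower, against 20 and 40. Against young controls 23 were higher and 38 lower, against 29 and 5. Without centring, leaving out a single library moved the 60 calls with repopulation to between 2 and 141. Of the 5 genes, only *Peg3* was called with centring, lower with age and higher with repopulation. The groups did not overlap for 5 of 5 genes with age, where 70.1% of the table did not, for 4 of 5 with repopulation, where 37.4% did not, and for 1 of 5 between aged-repopulated and young, where 42.7% did not. By direction, 4 were higher and 1 lower with age (50.7% and 19.4% of the table), 1 higher and 3 lower with repopulation (15.2% and 22.2%), and 1 higher against young controls (31.5%, with 11.2% lower). The share called with age was near that of the table, and the authors' choice of genes had already used these libraries. Against young controls the 95% intervals in aged-repopulated brains ran from -0.086 to 0.059 log2 for *Ybx1*, -0.031 to 0.10 for *Ssrp1* and -0.085 to 0.12 for *Smarcd3*, so that differences of this size remain possible. Scaling moved that of *Ybx1* from -0.014 to -0.067 with centring, -0.063 with quantile normalization, -0.068 with the GC correction and -0.10 with the length correction, the last outside its interval (limma adjusted p from 0.085 to 0.202).

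**Figure D3:**
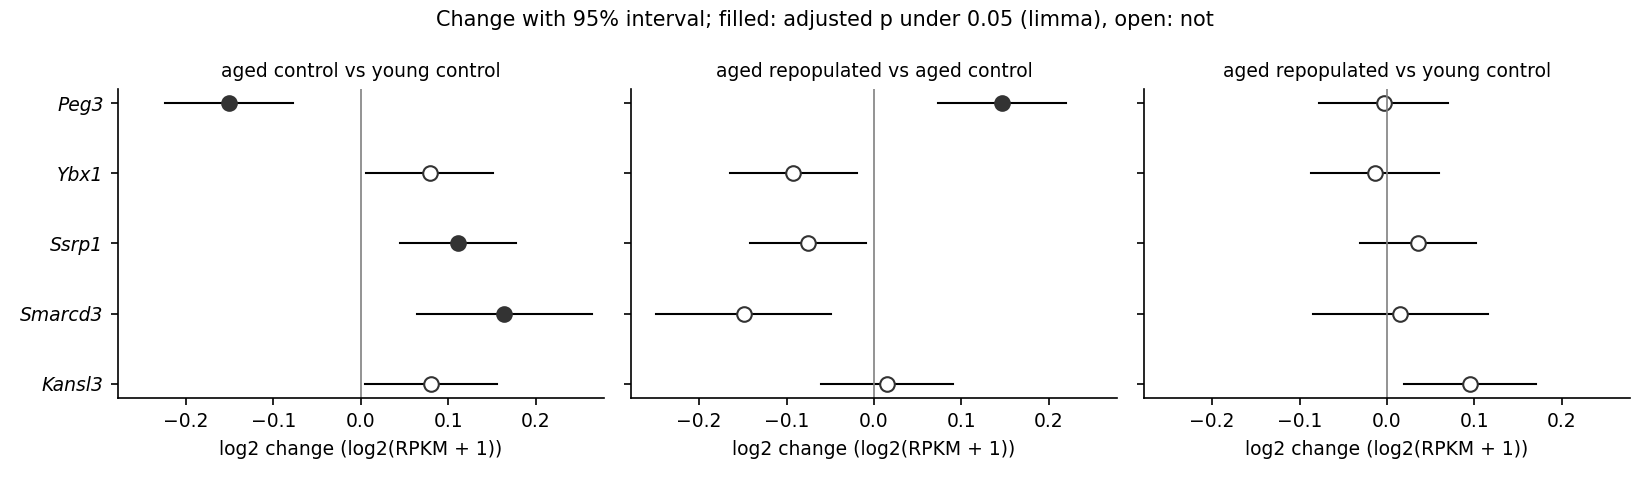
Log2 change of the 5 genes on the log2(RPKM + 1) scale (horizontal axis) in the 3 comparisons, with the 95% interval from limma; filled points have an adjusted p under 0.05 and open points do not. *Peg3*, *Ssrp1* and *Smarcd3* are filled with age, *Peg3* alone with repopulation, and none against young controls.

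The level of *Peg3* relative to each other gene of the set was also taken within each library, where a scaling of the whole library cancels. This measure was chosen after the values were seen and is given without a test. The ratio of *Peg3* to *Ybx1* was 2.52, 2.48 and 2.44 in young controls, 2.18, 2.12 and 2.03 in aged controls, and 2.52, 2.56 and 2.41 in aged-repopulated brains. To *Ssrp1* it was 2.61, 2.44 and 2.46 in young controls, 2.09, 2.12 and 2.03 in aged controls, and 2.45, 2.43 and 2.42 in aged-repopulated brains. To *Smarcd3* the 3 groups gave 2.49 to 2.69, 1.98 to 2.20 and 2.46 to 2.66, and to *Kansl3* 4.0 to 4.2, 3.34 to 3.73 and 3.81 to 3.88. Every ratio was lowest in the aged controls, without overlap with the other groups. For *Ybx1*, *Ssrp1* and *Smarcd3* this follows from the levels above and is no further result. *Peg3* was lowest and these genes were highest in aged controls, without overlap. The same holds for *Kansl3* between aged and young controls. The *Peg3* to *Kansl3* ratio of aged-repopulated brains also lay below that of young controls without overlap, whereas the ratios to the other 3 genes overlapped between these groups. A ratio shows unequal change and not which gene changed, and it does not remove the trend on transcript length. After the length correction the age difference went from -0.23 to 0.056 log2 for *Peg3* to *Ybx1*, from -0.26 to -0.053 to *Ssrp1*, from -0.31 to -0.041 to *Smarcd3* and from -0.23 to -0.13 to *Kansl3*. The difference with repopulation went from 0.24 to 0.042, from 0.22 to 0.059, from 0.30 to 0.10 and from 0.13 to 0.048 in the same order.

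**Figure D4:**
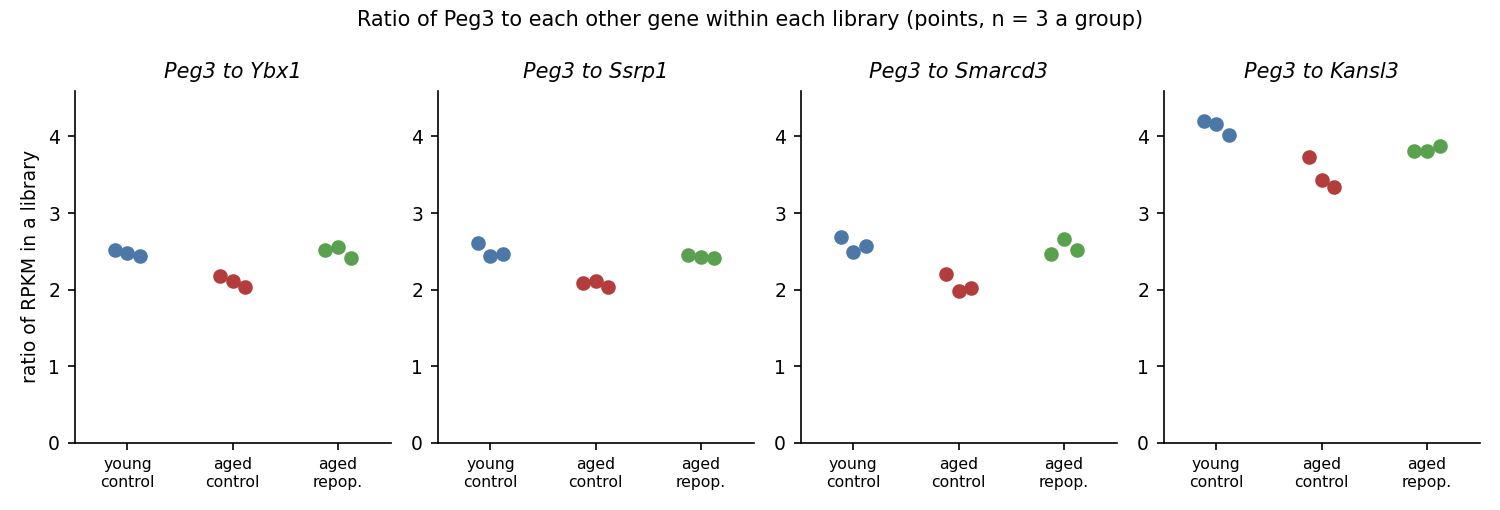
Ratio of the RPKM of *Peg3* to that of *Ybx1*, *Ssrp1*, *Smarcd3* and *Kansl3* within each library (points, 3 for each group, vertical axis from 0). The aged control libraries are lowest for each ratio, for example 2.03 to 2.18 for *Ybx1*, against 2.44 to 2.52 in young control and 2.41 to 2.56 in aged-repopulated libraries.

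Likeness to other genes of the table was measured as the mean absolute difference of z-scores over the 9 libraries, where 0 is an identical pattern. Among the 5 genes, the closest pair was *Ssrp1* and *Smarcd3* at 0.50, then *Ybx1* and *Smarcd3* at 0.54 and *Ybx1* and *Ssrp1* at 0.63. *Peg3* was between 1.23 and 1.63 from the other 4. The table genes most like *Peg3* were *Sbf1* (0.28), *Ddhd1* (0.29) and *Nfasc* (0.30), against a median of 1.39 over all other genes. Their transcripts are long as well, with 6190, 9820 and 9739 nucleotides. *Sbf1* was at 25.1 ± 0.61, 22.0 ± 1.14 and 24.7 ± 0.68 RPKM (SD, n = 3) in young control, aged control and aged-repopulated brains. Those most like *Ybx1* were *Nt5c*, *Ndufs4* and *Cetn3* (0.27 to 0.31), and those most like *Smarcd3* were *Rpl14*, *Churc1* and *Kcmf1* (0.22 to 0.25). *Ssrp1* was closest to *Luc7l3*, *Prpf39* and *Pnn* (0.21 to 0.27). *Luc7l3* was at 62.2 ± 0.54, 70.6 ± 1.28 and 65.3 ± 1.60 RPKM in the same order. The closest to *Kansl3* was *Tspan14* (0.18), at 12.3 ± 0.33, 13.6 ± 0.58 and 13.9 ± 0.34 RPKM, followed by *Dnajc3* and *Tbc1d9b* (0.30 and 0.31). The medians over all other genes were 0.82 for *Ybx1*, 0.73 for *Ssrp1*, 0.76 for *Smarcd3* and 0.87 for *Kansl3*. In the order named, the genes like *Ybx1* have transcripts of 858, 1698 and 1226 nucleotides. Those like *Smarcd3* have 1009, 676 and 3251, those like *Ssrp1* 5244, 4069 and 3485, and those like *Kansl3* 2477, 5141 and 5213. All likeness values come from a table that was itself selected with the use of these libraries.

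Lists of complex partners and related genes placed 8 further genes in the table. Of 29 BAF subunits listed, the ATPase *Smarca2* and the scaffold *Smarcc2* are present besides *Smarcd3*. *Smarca2* was at 39.9 to 41.3 RPKM in young controls, 41.1 to 42.6 in aged controls and 40.9 to 41.7 in aged-repopulated brains, and *Smarcc2* at 59.6 to 62.8, 63.9 to 64.8 and 63.9 to 65.3 RPKM. The aged groups of *Smarcc2* were both above the young controls without overlap, and neither subunit was called in any comparison. Of 10 NSL genes listed, *Kansl1*, a scaffold of the complex, is present besides *Kansl3*. It was at 15.6 to 16.7, 16.3 to 16.7 and 16.9 to 17.3 RPKM and was not called. Of the 2 FACT subunits, *Ssrp1* alone is in the table.

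Of 30 Y-box and messenger ribonucleoprotein genes listed, *Lsm14a* and *G3bp1*, which act in cytoplasmic RNA granules, and the splicing repressor *Ptbp1* are present besides *Ybx1*. *Lsm14a* and *Ptbp1* rose with age, by 0.099 and 0.18 log2 (limma adjusted p = 0.044 and 0.036), the values of *Ptbp1* overlapping between the groups, and *G3bp1* had a difference of 0.083 (limma adjusted p = 0.058). Neither rise was called with median centring, quantile normalization or the length or GC correction, and with centring and the length correction *Lsm14a* differed by -0.0088 and -0.0030 log2. With single libraries left out, *Lsm14a* was not called in 7 of 9 fits (limma adjusted p from 0.052 to 0.137), namely those without any 1 young control, any 1 aged control or aged-repopulated replicate 2. *Ptbp1* was not called in 4 of 9, those without young control replicate 1 or 3 or aged control replicate 1 or 2 (limma adjusted p from 0.090 to 0.116), nor with untransformed RPKM or unmoderated variances (0.068 and 0.081). *G3bp1* was at 17.1 to 17.9 RPKM in young controls, 18.1 to 18.8 in aged controls and 16.9 to 17.9 in aged-repopulated brains, with the aged controls above both other groups. With repopulation its difference was -0.083 (limma adjusted p = 0.112). Of 57 imprinted genes listed, *Copg2*, a subunit of the coatomer of transport vesicles, and *Adam23*, a cell-surface protein of neurons, are present besides *Peg3*. Both fell with age, *Copg2* by 0.086 and *Adam23* by 0.18 log2 (limma adjusted p = 0.029 and 0.011). Both were also called lower under each of those settings, with *Copg2* at -0.13 and *Adam23* at -0.13 log2 after the length correction (limma adjusted p = 0.015 and 0.038). *Adam23* was called with every library left out in turn, whereas *Copg2* was not called without young control replicate 1 or 3 or aged control replicate 1 or 2 (limma adjusted p from 0.064 to 0.094). In a fit of the young and aged controls alone, *Lsm14a* and *Copg2* were not called (limma adjusted p = 0.055 and 0.057). *Adam23* was at 27.5 to 27.8 RPKM in young controls, 23.2 to 26.0 in aged controls and 25.4 to 26.6 in aged-repopulated brains. With repopulation *Copg2* and *Adam23* differed from aged controls by 0.023 and 0.084 log2 (limma adjusted p = 0.532 and 0.163). Together, 4 of the 8 genes were called with age, 2 higher and 2 lower, against 62.8% of the table (46.3% higher and 16.5% lower), with a median log2 difference of 0.061 against 0.096. With repopulation limma called 0 of the 8, against 8.71% of the table, and 1 had an unadjusted p under 0.05, against 39.3%, with a median of -0.0078 against -0.047. Compared with young brains, limma called 0 of the 8 in aged-repopulated brains, against 4.93%, and 2 had an unadjusted p under 0.05, against 28.4%.

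**Figure D5:**
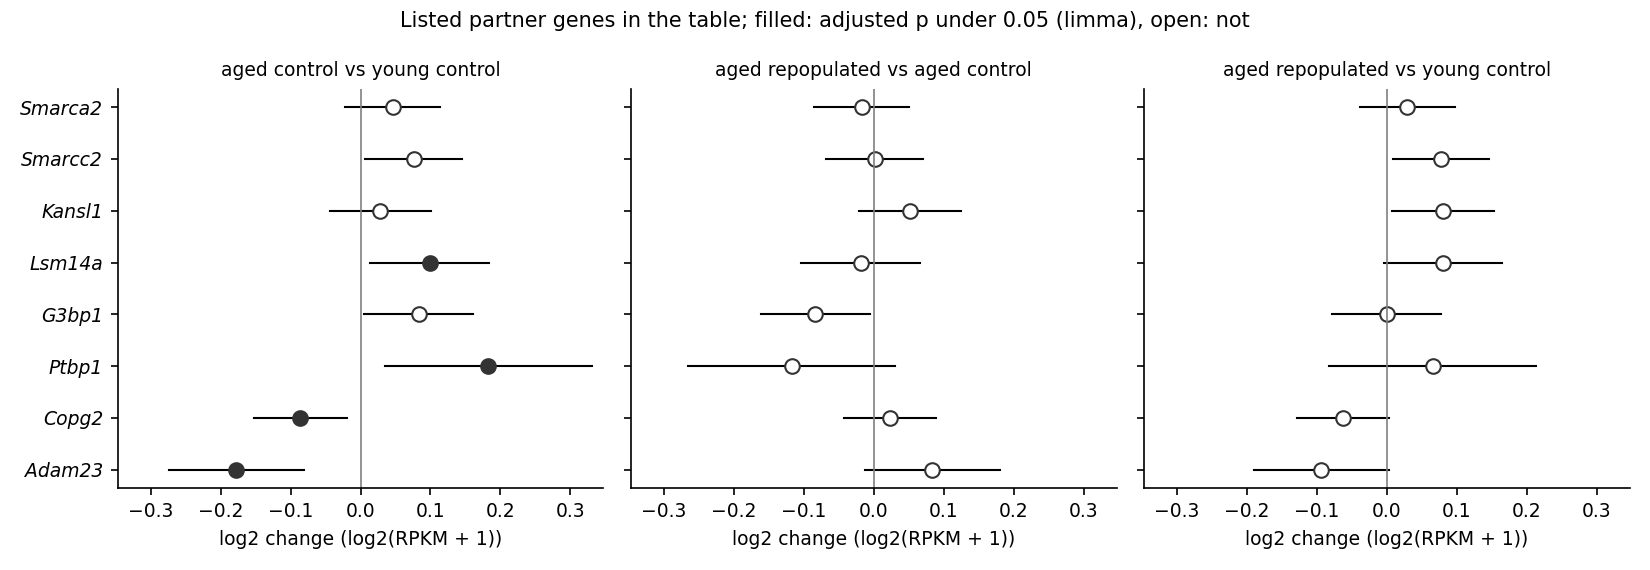
Log2 change on the log2(RPKM + 1) scale (horizontal axis) of the 8 listed partner and related genes in the 3 comparisons, with the 95% interval from limma; filled points have an adjusted p under 0.05. *Lsm14a* and *Ptbp1* are filled and higher with age, *Copg2* and *Adam23* filled and lower, and no point is filled in the other comparisons.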

How the data were processed

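RNA-seq values from half-brain tissue of 9 mice, 3 to a group, were used. The authors called bases with CASAVA 1.8.2, aligned reads to mm10 with ELAND v2, kept genes above an RPKM threshold and fitted a linear model to the RPKM. Their deposited table gives RPKM per library for the 689 genes called. It also holds the authors' F and t scores and p-values, which were not used. The counting step is not given in the sources used here. Read depth is unknown, so precision rests on the 3 libraries of a group. Among 100 genes, no library size gave RPKM steps of whole reads (best mean cosine 0.314, where whole reads with matching lengths give 1). GENCODE transcript lengths were used, which may differ from those behind the RPKM. The check therefore cannot decide whether whole reads were counted.

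From the deposited values, log2(RPKM + 1) was compared between groups (limma 3.58.1, R 4.3.3), all 9 libraries in 1 fit without covariates and Benjamini-Hochberg adjustment over 689 genes at 0.05. Changes on this scale understate those of low genes. The labels do not say that libraries shared a batch or a pair. Positions, transcript lengths and GC content came from GENCODE M21 (GRCm38, also called mm10), with 686 of 689 symbols matched, 19 through an older symbol, and promoters from RefSeq, where 5 of the 5 genes matched. Length and GC trends were removed from each library by loess (span 0.5). These trends, the medians and the quantiles were estimated on genes of the selected table alone. The code was tested on simulated data: of 200 genes changed among 689, 3.5% were recovered at a log2 change of 0.1 and 81.5% at 0.2 between aged-repopulated and aged control libraries. Python 3.11.15 and pandas 2.3.3 were used.

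The 5 genes, the lists and the tests were chosen with earlier results of these data known. The genes named are the 5, for each the 3 most alike by z-score, and every list member in the table; *Chpf2* was added after its overlap was seen. Alternatives were pseudocounts of 0.1 and 10, untransformed RPKM, median centring, quantile normalization, length and GC corrections, a mean of at least 20 RPKM, fits restricted to the pair of groups, unmoderated variances, and leaving out each library in turn.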

Additional observations from a re-analysis of the deposited data

How the results depend on the processing

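Of 282 values of the 5 genes under an alternative, 234 kept their direction and their side of the threshold, 20 lost a call, 8 gained one and 24 changed sign, of which 3 are among the lost and 1 among the gained. The cause was not tested. Some alternatives cannot alter a log2 change, so the direction was kept there by construction. These are the fits restricted to the pair of groups, unmoderated variances, the 20 RPKM minimum and leaving out a library of the group not compared. Of the 5 genes, 3 were called with age, and 1 was with median centring, quantile normalization and the GC correction (*Peg3*, lower), 1 with the length correction (*Ybx1*, lower, not among the 3), and 5 without variance moderation. With repopulation, where 1 was called, the number was 0 with the length correction, with only the groups compared and without variance moderation, and 0 to 2 with a library left out. Over the table, genes called with age numbered 433, and 277 with quantile normalization, 162 with the length correction, 251 at a mean of at least 20 RPKM (fewer genes tested) and 269 (without young control replicate 3) to 438 with a library left out. With repopulation they numbered 60, and 21 with untransformed RPKM, 133 with median centring, 13 with the length correction, 31 at a mean of at least 20 RPKM, 5 with only the groups compared, 5 without moderation and 2 (without aged-repopulated replicate 3) to 141 (without aged control replicate 1) with a library left out. Between aged-repopulated and young brains they numbered 34, and 6, 61, 72, 22 and 9 with untransformed RPKM, centring, the length correction, the 20 RPKM minimum and no moderation, and 11 to 59 with a library left out. Median centring turned the split with age from 319 of 433 higher to 78 of 293 higher, and with repopulation from 20 of 60 to 111 of 133. Between aged-repopulated and young brains 29 of 34 were higher, against 23 of 61 with centring and 26 of 72 with the length correction.

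Log2 changes with age that changed sign were those of *Ybx1* (-0.029 with centring, -0.028 with quantile normalization, -0.12 with the length and -0.024 with the GC correction), *Ssrp1* (-0.0064, length), *Smarcd3* (-0.018, length, and -0.026, GC) and *Kansl3* (-0.027 with centring, -0.0084 with quantile normalization and -0.053 with GC), and *Lsm14a* (-0.0088, centring, and -0.0030, length). With repopulation they were those of *Ybx1* (0.013, length) and *Kansl3* (-0.014 to 0.030 with a library left out). Between aged-repopulated and young brains they were those of *Ssrp1* (-0.018, -0.014, -0.010 and -0.011 with centring, quantile normalization, length and GC), *Smarcd3* (-0.038, -0.028, -0.064 and -0.077 in the same order, and -0.014 to 0.051 with a library left out), *Peg3* (-0.020 to 0.016) and *Ybx1* (-0.037 to 0.0088). *Kansl3*, under 20 RPKM, has no value at that minimum. No paired analysis was possible because the mice differ between groups and no label ties them in pairs; the replicate numbers used here follow accession order.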
